A study of Mus musculus with 6 samples.

Results

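The integrated stress response genes described here are 43 mouse gene symbols that cover the PERK-ATF4 branch of the response and its targets, and they were measured in whole testes of mice aged 7 weeks, 3 of them KOStra8 and 3 HETStra8. All 43 symbols were found in the annotation by name, without use of any measured value, and they correspond to 44 of the 55536 gene models in the count tables, because Ddit3 has a second, nested model. None of the 41 gene models with enough reads for a test passed the cutoffs used in the study (adjusted p of 0.01 together with a fold of 2) in either direction, beside 0.00466% of all 21465 tested genes in each direction. With the fit used here, that share is 1 gene in each direction. The study, which does not name its fit, reported many more genes at the same cutoffs. The 95% confidence interval of the KOStra8 to HETStra8 ratio lay within a fold of 2 for 36 of the 41 models. That is 87.8%, beside 73.4% of all tested genes. The stress-induced Atf3 and Trib3 had too few reads for a test. Poly(A)+ RNA of 1 testis library per mouse gave between 28875108 and 36526695 counts, and the mice differed by a common biological coefficient of variation of 0.160.

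The study asked what the loss of SEL1L does to male germ cells. SEL1L is the cofactor of the ubiquitin ligase HRD1 in endoplasmic reticulum (ER)-associated degradation, by which misfolded proteins leave the ER and are destroyed. KOStra8 mice carry 1 floxed and 1 deleted Sel1L allele and a Cre recombinase under the Stra8 promoter, which is active in male germ cells. By immunostaining in the study, spermatogonia and Sertoli cells of these mice still have SEL1L. For the HETStra8 littermates the deposited record gives 1 floxed and 1 deleted allele, without mention of a Cre, while the paper pools that genotype with floxed/wild-type mice carrying Stra8-Cre, and the genotype of each mouse was not given. Sel1l itself was at 49.3, 47.6 and 42.4 CPM (counts relative to the library's normalized total) in HETStra8 mice 1, 2 and 3 and at 24.2, 21.97 and 20.3 CPM in KOStra8 mice 1, 2 and 3, a log2 fold change of −1.07 that passed both cutoffs with edgeR's quasi-likelihood test.

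In the integrated stress response, 1 of 4 kinases phosphorylates the translation initiation factor eIF2 on its alpha subunit. PERK senses unfolded proteins in the ER, GCN2 senses uncharged tRNA, PKR senses double-stranded RNA, and HRI senses heme shortage and mitochondrial stress. Phosphorylated eIF2 inhibits its own exchange factor eIF2B, so that general translation falls while a few mRNAs with upstream reading frames, including Atf4, are translated more. ATF4 then raises the transcription of genes for amino acid synthesis and import, for tRNA charging and, together with CHOP, for feedback and cell death. Phosphorylation and translation are not measured by poly(A)+ RNA, so the values here are transcript levels of the pathway's parts and targets. The study itself, at other ages, reported PERK protein, its phosphorylation and ATF4 protein as unaffected in KOStra8 testes by Western blot. By qPCR it reported the transcripts of PERK, ATF4 and CHOP as unchanged.

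ATF4 binds DNA as a dimer with C/EBP proteins at the C/EBP-ATF response element, whose core was searched as TGATGNAA on both strands of the RefSeq promoter windows (GRCm38.p6), each of 250 bases before to 50 after a transcription start. Of the 36 genes of the set with a window, 9 (25%) hold the core, compared with 1219 of 27025 genes (4.51%) overall. Because the set was chosen to include known ATF4 targets, these shares are no test of enrichment. The holders are Aars, Asns, Atf3, Chac1, Gars, Nupr1, Slc7a11, Trib3 and Vldlr. These stretches are shown because the known ATF4 targets among them are the genes on which a transcriptional response would be read, and the capitals mark the core on either strand. Each runs 5′ to 3′ on the strand of its gene and ends before the transcription start.
Asns, chr6:7693210-7693252 (− strand): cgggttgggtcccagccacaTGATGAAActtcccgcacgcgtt
Slc7a11, chr3:50443633-50443699 (− strand): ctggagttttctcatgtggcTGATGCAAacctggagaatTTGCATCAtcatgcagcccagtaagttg
Chac1, chr2:119351029-119351076 (+ strand): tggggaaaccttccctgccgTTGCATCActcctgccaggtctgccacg
Atf3, chr1:191183416-191183463 (− strand): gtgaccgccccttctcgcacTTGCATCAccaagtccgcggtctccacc
Nupr1, chr7:126625553-126625600 (− strand): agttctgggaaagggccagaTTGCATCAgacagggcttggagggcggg
Aars, chr8:111033710-111033757 (+ strand): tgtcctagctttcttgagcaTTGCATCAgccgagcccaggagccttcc
Gars, chr6:55037951-55037998 (+ strand): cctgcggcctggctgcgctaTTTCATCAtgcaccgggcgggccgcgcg
Vldlr, chr19:27216800-27216847 (+ strand): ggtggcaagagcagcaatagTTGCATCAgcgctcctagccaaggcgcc
Slc7a11 holds 2 cores on opposite strands, whereas each of the other stretches holds 1. Trib3 holds its core after the transcription start, and Aars holds another there. Cth, Eif2b3, Eif4ebp1, Nars, Ppp1r15b, Slc7a5 and Wars have no entry in the promoter table. A match is a description of these letters and no evidence that a factor binds there.

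Members differed widely in abundance. Per kilobase of mean transcript length, the levels of the 41 tested models ran from 0.165 to 136 CPM per kb with a median of 17.3, and 27 were above 10 while 5 were below 1. With the longest transcript as the length 2 models moved by more than 5 places in the order, and the Spearman correlation of both sets of levels was 0.974 over the 41 models. Asns, which makes asparagine, was the highest at 136 CPM per kb. It was at 153, 127 and 140.0 CPM in HETStra8 and 135, 131 and 118 CPM in KOStra8 mice 1, 2 and 3, so the groups overlapped (log2 fold change −0.13, adjusted p = 0.557). Aars, the alanyl-tRNA synthetase, came next at 97.5 CPM per kb, with 238, 217 and 193 CPM in HETStra8 and 193, 200.3 and 191 CPM in KOStra8 testes. Eif2s1, the eIF2 alpha subunit that the kinases phosphorylate, followed at 95.8 CPM per kb. With the longest transcript as the length, Eif2s1 was above Aars, at 51.4 against 35.7 CPM per kb. The 3 lowest tested genes were Cth, Cebpb and Vldlr, at 0.558, 0.361 and 0.165 CPM per kb.

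The 4 kinases were present in every testis, and PERK had the lowest mean level of them. Eif2ak1 (HRI) was the highest of the 4 in 6 of 6 mice, with a mean of 25.1 CPM per kb and 59.5% of the summed kinase level. Eif2ak2 (PKR) was second in 6 of 6 mice at 11.7 CPM per kb. Eif2ak4 (GCN2) and Eif2ak3 (PERK) were lowest at 2.97 and 2.35 CPM per kb. By mean transcript length their ranges over the mice overlapped, and PERK was below GCN2 in 5 of 6 mice. By the longest transcript their means were further apart, at 2.09 CPM per kb for GCN2 and 0.987 for PERK.

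A difference in PERK transcript between the genotypes was not detectable. Eif2ak3 (GRCm38 chr6:70844515-70905245, as are all further gene positions) was at 4.52, 3.98 and 4.11 CPM in HETStra8 mice 1, 2 and 3 and at 6.33, 3.70 and 4.08 CPM in KOStra8 mice 1, 2 and 3. KOStra8 mouse 1 stood above the other 5 mice, and without it the log2 fold change went from 0.16 to −0.10. The 95% interval of the log2 fold change with all mice was −0.32 to 0.65, and the adjusted p was 0.805. Eif2ak2 was at 12.2, 16.9 and 18.9 CPM in HETStra8 and 20.8, 16.9 and 23.9 CPM in KOStra8 testes. KOStra8 mouse 2 lay within the HETStra8 range, and the log2 fold change of 0.36 had an unadjusted p of 0.0537 and an adjusted p of 0.414. Eif2ak1 was at 61.1, 56.7 and 56.0 CPM in HETStra8 and 55.5, 52.0 and 55.7 CPM in KOStra8 testes, with every KOStra8 mouse below every HETStra8 mouse by a small margin. Its 95% interval, −0.27 to 0.089 on the log2 scale, reached from a slight decrease to a slight increase, and its adjusted p was 0.694. Eif2ak4 was at 10.8, 13.4 and 10.5 CPM in HETStra8 and 11.6, 10.3 and 9.83 CPM in KOStra8 testes, with overlapping groups and an interval of −0.44 to 0.18.

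Neither the substrate of the kinases nor a subunit of its exchange factor passed a cutoff. Eif2s1 was at 159.7, 173 and 178 CPM in HETStra8 and 172, 177 and 189.8 CPM in KOStra8 testes, which overlapped, and its log2 fold change of 0.076 had an interval of −0.084 to 0.24. The 5 genes Eif2b1 to Eif2b5 encode the subunits of eIF2B, and their log2 fold changes lay between −0.23 (Eif2b5) and −0.10 (Eif2b3). Eif2b4 was at 95.3, 82.3 and 82.3 CPM in HETStra8 and 74.8, 81.5 and 75.8 CPM in KOStra8 testes. All 3 KOStra8 values were below the HETStra8 values, though KOStra8 mouse 2 was close to HETStra8 mice 2 and 3, and the adjusted p was 0.451.

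The phosphatase that reverses eIF2 phosphorylation has 2 alternative regulatory subunits, and neither passed a cutoff. Ppp1r15a encodes GADD34, the inducible subunit that ATF4 and CHOP raise in feedback, and it was at 6.71, 5.26 and 5.19 CPM in HETStra8 and 4.32, 6.36 and 5.01 CPM in KOStra8 testes. These groups overlapped (log2 fold change −0.13, interval −0.56 to 0.30). Ppp1r15b (chr1:133131143-133139783) encodes CReP, the constitutive subunit, and it was at 48.7, 51.4 and 49.96 CPM in HETStra8 and 42.7, 41.5 and 46.3 CPM in KOStra8 testes without overlap. Its ratio of KOStra8 to HETStra8 was 0.869, with a 95% interval of 0.764 to 0.990, an unadjusted p of 0.0361 and an adjusted p of 0.376.

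Neither Atf4 nor a transcription factor beneath it passed a cutoff. Atf4 (chr15:80255184-80257541) was at 29.6, 32.3 and 30.6 CPM in HETStra8 and 29.9, 32.7 and 27.1 CPM in KOStra8 testes. KOStra8 mouse 2 was the highest and KOStra8 mouse 3 the lowest of the 6, so the groups overlapped, and the interval of the log2 fold change was −0.26 to 0.17. Atf5, a related factor with the same translational control, was at 18.5, 16.9 and 19.3 CPM in HETStra8 and 18.0, 20.1 and 17.2 CPM in KOStra8 testes, with an interval of −0.23 to 0.26. Ddit3, which encodes the pro-apoptotic factor CHOP, was at 49.2, 45.9 and 41.1 CPM in HETStra8 and 38.3, 54.1 and 41.8 CPM in KOStra8 testes. Its highest and its lowest value both came from KOStra8 mice, and its interval was −0.29 to 0.24. The signs of all 3 log2 fold changes turned under at least 1 alternative processing. The second Ddit3 model had 0 counts in all 6 libraries, which allows up to 0.104 CPM by the limit of 3 counts per library. Every 50-base sequence of that model is also in Ddit3, so its reads could not be told apart from those of Ddit3.

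Atf3 encodes a stress-induced repressor that ATF4 and CHOP activate, and it was near the limit of detection. It had 7, 3 and 3 counts in HETStra8 mice 1, 2 and 3 and 2, 1 and 0 counts in KOStra8 mice 1, 2 and 3. The counts were too low for the test, and no fold was computed. Cebpg, a C/EBP partner of ATF4, was at 79.9, 81.0 and 85.3 CPM in HETStra8 and 92.3, 88.3 and 93.7 CPM in KOStra8 testes. Every KOStra8 mouse was above every HETStra8 mouse, and the log2 fold change was 0.16 (interval −0.0078 to 0.32, adjusted p = 0.422). Cebpb had 27, 16 and 15 counts in HETStra8 and 26, 14 and 9 counts in KOStra8 testes, and its interval of −1.42 to 0.87 left changes past a fold of 2 possible.

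Of the stress outputs, Trib3, Chac1 and Vldlr had few counts. Trib3, a pseudokinase that ATF4 and CHOP raise and that then restrains them, had 2, 1 and 6 counts in HETStra8 and 2, 12 and 1 counts in KOStra8 testes, too few for the test. KOStra8 mouse 2 held 12 of these counts, whereas the other KOStra8 mice held 2 and 1. Chac1, a glutathione-degrading enzyme downstream of ATF4, had 19, 24 and 48 counts in HETStra8 and 27, 38 and 24 counts in KOStra8 testes. The HETStra8 values enclosed the KOStra8 values, and the interval of the log2 fold change was −0.98 to 0.94. Eif4ebp1, the translation repressor 4E-BP1, was at 8.18, 9.51 and 8.19 CPM in HETStra8 and 8.16, 7.15 and 8.13 CPM in KOStra8 testes. The groups did not overlap, but HETStra8 mice 1 and 3 were close to KOStra8 mice 1 and 3 (adjusted p = 0.741). Vldlr, a lipoprotein receptor that is an ATF4 target, had 4, 7 and 30 counts in HETStra8 and 26, 18 and 18 counts in KOStra8 testes, with the highest log2 fold change of the set, 0.58, and an interval of −0.78 to 1.94. HETStra8 mouse 3 was above all KOStra8 mice, and the value was 1.87 without it, 0.16 without HETStra8 mouse 1 and 0.26 without HETStra8 mouse 2. Of the remaining outputs, Sesn2 and Ddit4, which restrain mTORC1, were at log2 fold changes of −0.13 and −0.24. The secreted hormone Stc2 had the lowest value of the set, −0.47, and its interval of −1.26 to 0.32 included 0.

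**Figure D1:**
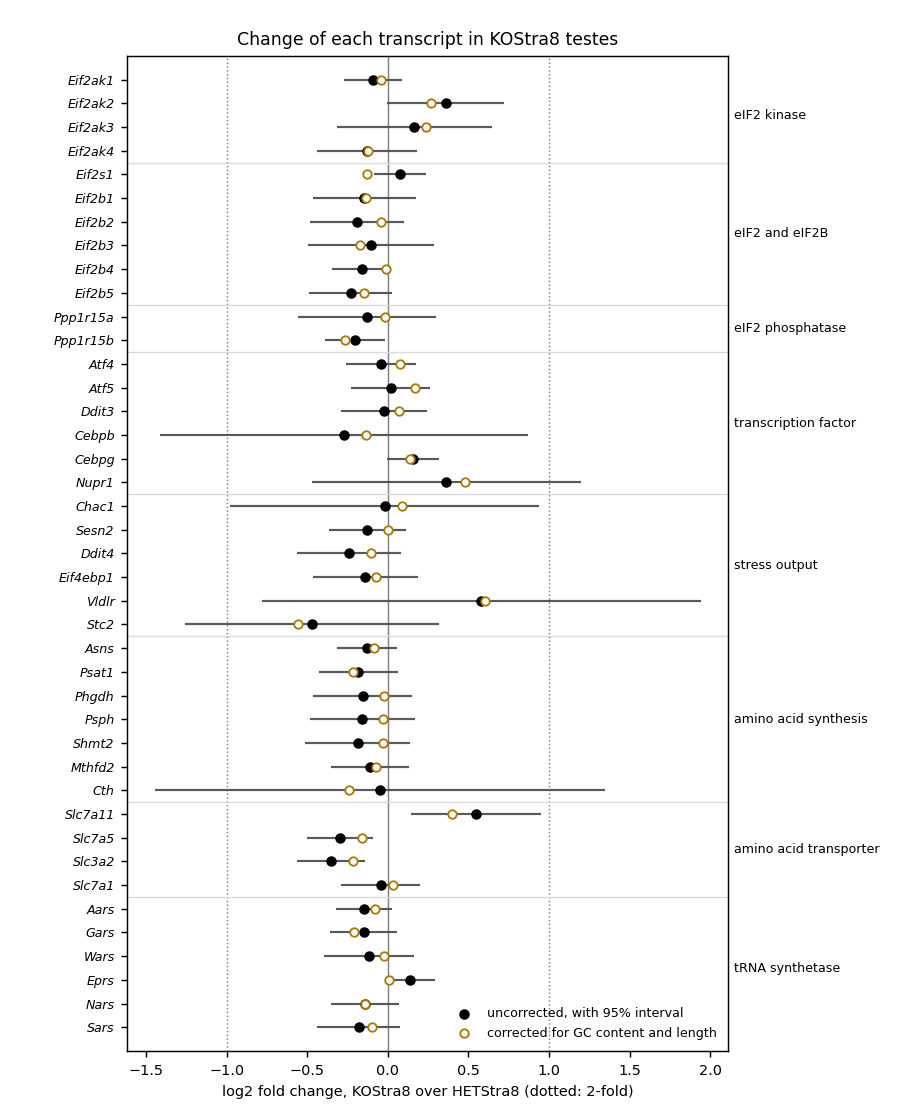
Log2 fold change of KOStra8 over HETStra8 for each tested gene, grouped by role. Filled points with 95% intervals are the uncorrected fit of 3 against 3 mice, open points the fit corrected for GC content and length, and dotted lines mark a fold of 2. Values run from −0.47 (Stc2) to 0.58 (Vldlr), and the intervals of 5 genes cross a dotted line.

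None of the genes for amino acid synthesis passed a cutoff. All 7, for asparagine (Asns), serine and glycine (Phgdh, Psat1, Psph, Shmt2), mitochondrial folate (Mthfd2) and cysteine (Cth), had a log2 fold change below 0, from −0.19 for Shmt2 to −0.05 for Cth. HETStra8 mouse 1 was the highest of the 6 mice for 7 of the 7 (25.4% of all genes), and KOStra8 mouse 3 was the lowest for 6 (17.4% of all genes). Cth had 36, 11 and 5 counts in HETStra8 and 17, 10 and 26 counts in KOStra8 testes. HETStra8 mouse 1 supplied most of the HETStra8 counts and was also the mouse with the highest epididymal marker level. KOStra8 mouse 3, with 26 Cth counts, had these markers at 0.027 CPM, and a link between them and Cth was not tested. Of the 50-base sequences of Phgdh, 47.8% are also in other genes, most of them in Gm7901, so its counts are uncertain.

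In the uncorrected fit, the 3 lowest p-values of the set belonged to amino acid transporters, whereas Ppp1r15b had the lowest after a correction for GC content and length. Slc3a2 and Slc7a5 encode the heavy and the light chain of LAT1, the heterodimer that imports large neutral amino acids. Slc3a2 (chr19:8706882-8723369) was at 114, 98.5 and 89.7 CPM in HETStra8 and 82.7, 82.6 and 70.8 CPM in KOStra8 testes, a mean of 101 ± 12.2 CPM (SD, n = 3) against 78.7 ± 6.87 CPM (SD, n = 3). All 3 KOStra8 values were below all 3 HETStra8 values, and HETStra8 mouse 1 was the highest and KOStra8 mouse 3 the lowest. The ratio was 0.782 with an interval of 0.675 to 0.905 (unadjusted p = 0.00288, adjusted p = 0.193). With DESeq2 the adjusted p was 0.0439, with no filter on low counts it was 0.0088, and without HETStra8 mouse 3 it was 0.0145, all at a fold below the cutoff of 2.

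Slc7a5 (chr8:121881150-121907694) was at 159, 134 and 121 CPM in HETStra8 and 119, 109 and 108 CPM in KOStra8 testes, again without overlap. Its ratio was 0.813 with an interval of 0.705 to 0.937 (unadjusted p = 0.00743, adjusted p = 0.252). The adjusted p was 0.0376 with no filter, 0.0182 without HETStra8 mouse 3 and 0.103 with DESeq2. Slc7a11 (chr3:49892526-50443614), the cystine importer xCT whose promoter holds the 2 cores shown above, was at 4.04, 4.16 and 4.38 CPM in HETStra8 and 6.41, 6.98 and 5.01 CPM in KOStra8 testes. Here the KOStra8 values were the higher ones, with a ratio of 1.46 and an interval of 1.10 to 1.93 (unadjusted p = 0.0117, adjusted p = 0.285). Both transporters share Slc3a2 as their heavy chain, and the log2 fold changes of the pair of light chains had opposite signs. Slc7a1, the cationic amino acid transporter, was at a log2 fold change of −0.045.

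**Figure D2:**
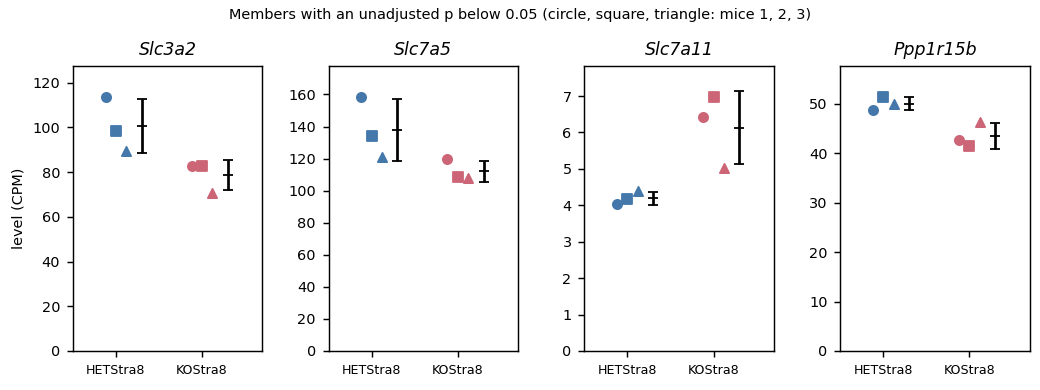
CPM of Slc3a2, Slc7a5, Slc7a11 and Ppp1r15b in each of 6 testes (circle, square and triangle for mice 1, 2 and 3), with the mean and SD of 3 mice beside them and axes from 0. No KOStra8 point overlaps the HETStra8 points in any of the 4 genes, with Slc7a11 higher and the others lower in KOStra8.

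Aminoacyl-tRNA synthetases, which load tRNA and are raised by ATF4, did not pass a cutoff either. Of 6 measured, 5 had a log2 fold change below 0, from −0.18 for Sars to −0.12 for Wars, and Eprs had one of 0.14. Eprs, the glutamyl-prolyl enzyme, was at 127, 123 and 126 CPM in HETStra8 and 143, 134 and 136 CPM in KOStra8 testes, with every KOStra8 mouse higher and an adjusted p of 0.451. Nars was at 33.3, 31.4 and 31.7 CPM in HETStra8 and 30.1, 30.6 and 26.7 CPM in KOStra8 testes, with every KOStra8 mouse lower and an adjusted p of 0.572. Aars had a log2 fold change of −0.15, and 13.8% of its 50-base sequences are shared, most of them with Exosc6, which overlaps it on the same strand.

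Across the set, 4 of 41 models (9.76%) had an unadjusted p below 0.05, compared with 12.3% of all 21465 tested genes. Slc7a11 was the 1 that was higher (7.13% of all genes) and Slc3a2, Slc7a5 and Ppp1r15b were the 3 that were lower (5.12%). With all 6 mice and the default filter, none had an adjusted p below 0.05 with edgeR's quasi-likelihood test, beside 0.0233% of all genes. Slc3a2 and Slc7a5 were below it with no filter and without HETStra8 mouse 3. At an adjusted p below 0.01 and any fold, 0 were higher (0.014% of all genes) and 0 lower (0.00466%). The lowest adjusted p of the set was 0.193. Without HETStra8 mouse 3 the 4 became 15, and the share of all genes was then 19.8%.

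Separation of the 2 genotypes without overlap was seen for 10 models (24.4%, against 17.8% of all genes), 3 with KOStra8 above (9.33% of all genes) and 7 with KOStra8 below (8.43%). The 3 were Slc7a11, Cebpg and Eprs, and the 7 were Eif2ak1, Eif2b4, Ppp1r15b, Eif4ebp1, Slc7a5, Slc3a2 and Nars. The intervals lay within a fold of 2 for 87.8% of the set (73.4% of all genes) and within a fold of 1.5 for 32 models, or 78% (50.9%). The set was also more abundant, with a median log2 CPM of 4.91 against 3.03 for all genes. The 5 models whose interval crossed a fold of 2 were Cebpb, Nupr1, Vldlr, Stc2 and Cth. In whole testis, fewer cells that hold a transcript and less of it per cell cannot be told apart.

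Most of the set, though not every role, was slightly lower in KOStra8 in the uncorrected fit. Of the 41 models, 32 were lower (51.5% of all genes) and 9 higher (48.5%) in KOStra8. The median log2 fold change was −0.13, against −0.0094 for all genes. It was 0.037 for the 4 kinases (2 higher) and −0.0026 for the 6 tested transcription factors (3 higher). HETStra8 mouse 1 was the highest of the 6 mice for 25 of 41 models (25.4% of all genes), with a median deviation of 0.22 on the log2 scale. KOStra8 mouse 3 was the lowest for 16 models (17.4% of all genes), with a median deviation of −0.11. Without HETStra8 mouse 1, 15 of the 41 were higher in KOStra8, and without KOStra8 mouse 3, 14 were. The median log2 fold change of all genes was −0.0053 and −0.0072 in these runs, in that order. Among the 17 genes for synthesis, transport and tRNA charging, 15 were highest in HETStra8 mouse 1 and 15 were lower in KOStra8.

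**Figure D3:**
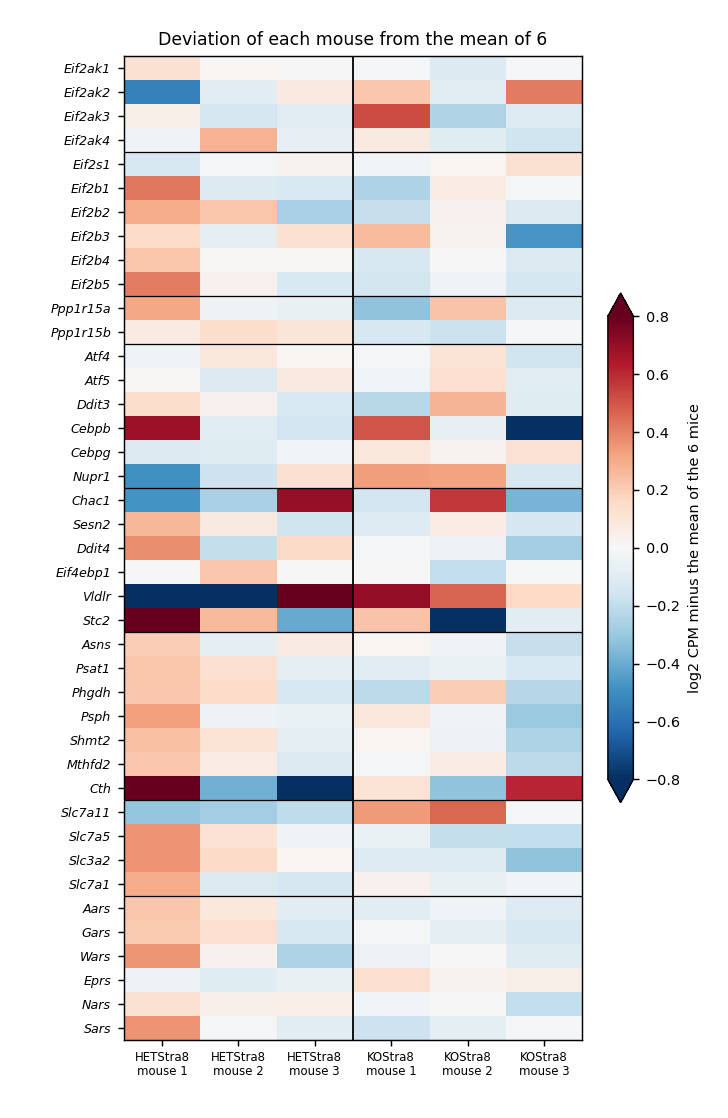
Deviation of each mouse from the mean of the 6 mice, in log2 CPM, for each tested gene. Rows are genes by role, columns are the 3 HETStra8 and 3 KOStra8 mice, and red is above and blue below the mean. HETStra8 mouse 1 has the highest value of the row for 25 of 41 genes.

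Fold changes were related to the GC content of the transcripts. Over 21457 tested genes with a GC value, the Spearman correlation of the log2 fold change with GC content was −0.46. As a description of these libraries, the deviation of each correlated with GC content at 0.40, 0.28 and −0.060 in HETStra8 mice 1, 2 and 3. In KOStra8 mice 1, 2 and 3 it was at −0.24, −0.19 and −0.37. All 3 HETStra8 values lay above all 3 KOStra8 values, and the source of the trend was not tested. Within the 41 models the correlation of the log2 fold change with GC content was −0.31, and with the corrected fit described next it was 0.26. The median GC content was 52.2% for the set and 49.6% for all genes. After a correction of the offsets for GC content and length, the median log2 fold change of the set was −0.04, against −0.0042 for all genes. Of the 41, 13 were then higher in KOStra8, and 2 genes (4.88%, against 7.27% of all genes) had an unadjusted p below 0.05. These were Ppp1r15b (log2 fold change −0.27) and Slc3a2 (−0.22). Slc7a5 was then at −0.16, Slc7a11 at 0.40 and Eprs at 0.0045. Signs turned for Eif2s1 (−0.13), Atf4 (0.076), Ddit3 (0.07) and Chac1 (0.09) among the genes given in every mouse.

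**Figure D4:**
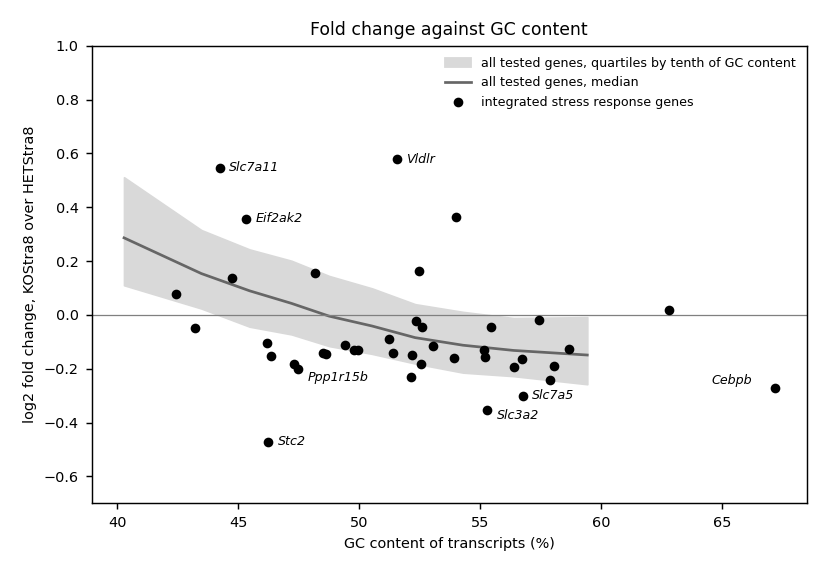
Log2 fold change of KOStra8 over HETStra8 against the GC content of the transcripts in percent. The line and band are the median and quartiles of all tested genes in 10 groups by GC content, and points are the 41 tested integrated stress response genes. The median of all genes goes from 0.29 at the lowest GC content to −0.15 at the highest, and the points run from −0.47 to 0.58.

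Markers of the testis cell types were compared beside these values. The germ cell, Sertoli, Leydig, myoid, macrophage, endothelial, epididymal and blood lists hold 68 genes, of which 63 were tested and 0 passed the cutoffs. Of these 63, 7 had an unadjusted p below 0.05, beside 12.3% of all genes. Protamines and other elongating spermatid genes summed to between 11538 and 13054 CPM in all testes. Of 13 lists, 3 had summed levels without overlap. Leptotene and zygotene spermatocyte markers summed to 215 to 384 CPM in HETStra8 and to 458 to 489 CPM in KOStra8 testes. The median log2 fold change of these 5 markers was only 0.046, and 1 was higher with an unadjusted p below 0.05 (7.13% of all genes). Sertoli markers summed to 319 to 350 CPM in HETStra8 and to 280 to 295 CPM in KOStra8 testes. Their median was −0.29 over 7 markers, and 3 were lower with an unadjusted p below 0.05 (5.12% of all genes). Medians of the Leydig, endothelial, blood, myoid and macrophage lists, whose sums overlapped, ran from −0.29 (Leydig) to −0.11 (macrophage). The third list was epididymal: its markers, of which 1 of 4 was at 0 in all mice, summed to 8.40 CPM in HETStra8 mouse 1 and to at most 0.327 CPM in the others, and Leydig markers were highest in that mouse, at 733 CPM. The part of these cells in the results was not tested.

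Further genes of the pathway, 75 in number, held 0 past the cutoffs. An unadjusted p below 0.05 was found for 16 (21.3%, beside 12.3% of all genes), and for 8 (10.7%, beside 7.27% of all genes) after the correction for GC content and length. All 8 were lower in KOStra8, 5 of them among the 16, namely Herpud1, Gpt2, Slc1a4, Sqstm1 and Glul, and 3 not, namely Eif2s3x, Prkra and Atf2. Of the 16, those higher in KOStra8, of which 0 kept a p below 0.05 after the correction, were Eif2s2 and Eif2s3y of eIF2, the initiation factor Eif5, the adaptor Nck1, the PERK inhibitor Dnajc3 and the phosphatase catalytic subunit Ppp1cb. Dnajc3 had a mean of 74.3 ± 9.98 CPM (SD, n = 3) in the HETStra8 group, compared with 90.2 ± 1.85 CPM (SD, n = 3) in the KOStra8 group, and its log2 fold change was 0.28 before and 0.078 after the correction. Lower were Gcn1l1, the GCN2 activator, and Ppp1ca, Trib1, Herpud1, Gpt2, Slc1a4, Qars, Vars, Sqstm1 and Glul. Vars, a valyl-tRNA synthetase, had the lowest adjusted p of these 75, 0.231, with a mean of 637 ± 75.4 CPM (SD, n = 3) in the HETStra8 group against 526 ± 30.7 CPM (SD, n = 3) in the KOStra8 group.

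Overlapping genes limit some of these values. On the opposite strand, exons of other genes cover 20.7% of the exon bases of Cebpb (Tmem189), 11.6% of Eif2ak1 (Aimp2 and Ankrd61), 11.4% of Ppp1r15b (Gm26616), 10.4% of Psph (Cct6a) and 8.05% of Eif2ak3 (Gm43292). The libraries are directional, but the strand setting of the counting was not given in the sources used here, so reads of these partners cannot be told apart from those of the listed genes there.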

How the data were processed

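Testis RNA of 3 KOStra8 and 3 HETStra8 mice was analysed with 1 library per mouse. The authors deposited raw counts, the whole number of reads per Ensembl gene. The submitters' processing notes name Trimmomatic, STAR 2.7.1a, StringTie 2.0.4 and featureCounts 1.6.0 among other tools, with builds mm10 and GRCm38 and no role for each. Symbols, positions, GC content and transcript lengths came from GENCODE mouse release 21 (GRCm38), and promoter windows from RefSeq.

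Counts were tested in R 4.3.3 with edgeR 4.0.16: filterByExpr, TMM, a quasi-likelihood model (robust) of genotype alone, and its F test, two-sided, with Benjamini-Hochberg adjustment over 21465 genes. CPM are TMM-normalized. Intervals are 95% intervals of that fit. An exact permutation test of 3 against 3 mice cannot give a p below 0.1.

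The genes given in every mouse were the kinases, Eif2s1, Atf4, Atf5, Ddit3, Ppp1r15a, Ppp1r15b, Trib3, Chac1, Asns, those with an unadjusted p below 0.05, without overlap or without a test, and the 3 highest and 3 lowest levels. The gene set, further pathway genes and marker lists were chosen with earlier results of these data known. Alternatives were other size factors (DESeq2's or library totals), other filters (none, or at least 10 counts in every sample), DESeq2 1.42.0, limma-voom (limma 3.58.1), the replicate number as a block, other thresholds, leaving out each mouse, and loess offsets for GC content and length (span 0.3, fitted above a log2 CPM of 2). The tests across all genes were checked on simulated counts with planted folds, which held no GC trend between libraries.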

Additional observations from a re-analysis of the deposited data

How the results depend on the processing

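No gene of the set passed the cutoffs in either direction under any alternative run, which included a test against a fold of 1.2. Of 41 models, 28 kept the sign of their log2 fold change under every alternative. The 4 with an unadjusted p below 0.05 were 2 with the correction for GC content and length, beside 7.27% of all genes. They were 3 to 15 when a mouse was left out (15 without HETStra8 mouse 3), beside 6.56% to 19.8% of all genes. The 9 higher in KOStra8 were 8 to 15 when a mouse was left out. With that correction and without HETStra8 mouse 1, a setting chosen after seeing the data, these counts were 1 (6.33% of all genes) and 23. The median log2 fold change was then 0.018, against −0.00062 for all genes. The count of genes higher in KOStra8 was also chosen after seeing the data.

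Signs of single log2 fold changes turned for 8 named genes. The GC and length correction gave −0.13 for Eif2s1, 0.076 for Atf4, 0.070 for Ddit3 and 0.090 for Chac1, and limma-voom gave 0.39 for Cth. Leaving out a mouse gave −0.10 to 0.31 for Eif2ak3, −0.10 to 0.022 for Atf4, −0.043 to 0.071 for Atf5, −0.17 to 0.083 for Ddit3, −0.71 to 0.083 for Cebpb, −0.36 to 0.47 for Chac1 and −0.49 to 1.11 for Cth. Vldlr kept its sign but lay between 0.16 and 1.87. At an adjusted p of 0.05, Slc3a2 and Slc7a5 passed with no filter and without HETStra8 mouse 3, and Slc3a2 with DESeq2. DESeq2 gave no adjusted p for 10 of 43 models.

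With the replicate number as a block, 4 of 41 models had an unadjusted p below 0.05, beside 12.3% of all genes. These were Eif2ak2, Slc3a2, Slc7a11 and Slc7a5. In that run 0 passed the cutoffs, 11 were higher in KOStra8, and Chac1 and Cth were at log2 fold changes of 0.025 and 0.21. The median log2 fold change of all genes was −0.0076 with the block. Whether equal numbers mark paired mice is not given in the labels. Deviations of mice with the same number correlated at −0.045, −0.15 and 0.20 over 13204 genes. Only the mice numbered 3 correlated best with each other. HETStra8 mouse 1 correlated best with KOStra8 mouse 2 (0.25) and HETStra8 mouse 2 with KOStra8 mouse 1 (0.090). So few mice cannot decide the question. Cth and Vldlr had few counts and also differed widely between mice of a group, with within-group SDs of 0.96 and 0.90 in log2 CPM.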
